A study of Mus musculus with 6 samples.

Results

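The AP-1 factors described here are 10 genes chosen by name from the 46072 gene identifiers of the count table. They are Jun, Junb and Jund of the Jun family, Fos, Fosb and Fosl2 of the Fos family, Batf and Batf3 of the BATF family, Atf3, and the repressor Jdp2. Jdp2 was picked because it was higher after vancomycin in these same libraries, so its values are given as a description with no test. The other 9 were taken for comparison with it, and all 10 were among the 16138 identifiers tested.

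Splenic monocytes were taken from female C57BL/6 mice of 8 to 10 weeks of age, with 3 mice in each of 2 groups. The Con group received water by oral gavage for 6 days, and the Van group received 2 mg of vancomycin per day, split into a morning and an afternoon dose, for the same 6 days. A rest period without antibiotic followed, which the sample records give as 6 to 8 days and the study as 8 days for the sequenced mice, and the cells were lysed with no stimulation in culture. Polyadenylated RNA of each mouse was sequenced as 1 library. The monocytes were enriched by removing other cells with magnetic beads, so other spleen cells can remain in a sample, and in such bulk samples fewer cells of a type and less RNA per cell cannot be told apart. The VanLip group, which also received a bacterial lipid, was not analysed here.

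AP-1 is a dimer of basic leucine zipper proteins that binds the DNA letters TGANTCA. Jun proteins pair with each other or with Fos proteins, and these dimers usually activate transcription, while Batf and Batf3 pair with Jun proteins and bind with the interferon regulatory factors Irf4 and Irf8. Atf3 is a stress-induced member that can repress or activate, and Jdp2 (Jun dimerization protein 2) pairs with Jun proteins and recruits histone deacetylases to repress AP-1 and CRE sites. In monocytes and macrophages, Fos, Jun and Atf3 are induced within minutes by bacterial products, growth factors and cell handling.

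Values per gene are given in CPM, estimated counts scaled to the size of the library with TMM factors. Levels of different genes are compared in FPKM, which also divides by transcript length. Shares of the 10 genes are given in CPM as well, which does not divide by length. Estimated counts of the 10 genes together made up 0.612% to 0.781% of a library, and sequencing depth was about 16.3M to 23.2M fragments for each mouse. Monocyte markers were high in all 6 libraries. The 7 markers of classical monocytes summed to 6453 to 6962 CPM in Con and 6327 to 7318 CPM in Van, and the 7 of nonclassical monocytes to 6582 to 8073 and 7275 to 9330 CPM. Markers of other cells were also detected. The 6 red pulp macrophage markers summed to 2423 to 2859 CPM in Con and 2882 to 3643 CPM in Van. The 6 erythroid markers summed to 61.9 to 125 CPM in Con and 212 to 468 CPM in Van. The 7 neutrophil markers summed to 4.08 to 8.66 CPM in Con and 1.88 to 7.74 CPM in Van, with Ly6g at 0 in every library but S100a8, S100a9 and Mpo detected in each.

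On chromosome 12 of the mouse genome build GRCm38, Fos (chr12:85473890-85477273), Jdp2 (chr12:85599027-85639878) and Batf (chr12:85686669-85709087) lie on the plus strand within 235.2 kb, and they are the only 3 protein-coding genes among the 6 genes annotated there. Jdp2 starts 125.1 kb and Batf 212.8 kb from the start of Fos. On chromosome 1, Batf3 (chr1:191097847-191108945, plus strand) and Atf3 (chr1:191170296-191218039, minus strand) lie within 120.2 kb. The remaining 5 stand alone at chr4:95049034-95052222 (Jun), chr8:84974484-84978718 (Junb), chr8:70698949-70700616 (Jund), chr7:19302696-19310051 (Fosb) and chr5:32135801-32157842 (Fosl2).

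Promoter letters of the 3 neighbours on chromosome 12 and of Jun are printed because AP-1 and CREB/ATF proteins control several of their own genes. RefSeq windows of the 250 bases before a transcription start (GRCm38.p6) matched all 10 genes, 3 windows for Jdp2 and 1 for each other gene. The stretches printed are the longest parts of these windows outside exons of GENCODE M21, at chr12:85599228-85599415 for the second Jdp2 window, chr12:85473640-85473889 for Fos, chr12:85686470-85686668 for Batf and chr4:95052223-95052472, minus strand, for Jun. Capitals mark TGACG, the core of the CRE site TGACGTCA, and, in Jun, the ATF site TGACATCA.
Jdp2: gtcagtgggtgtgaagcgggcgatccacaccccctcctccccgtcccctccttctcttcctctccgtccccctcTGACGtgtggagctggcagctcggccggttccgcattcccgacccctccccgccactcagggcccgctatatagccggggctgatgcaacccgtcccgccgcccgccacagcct
Fos: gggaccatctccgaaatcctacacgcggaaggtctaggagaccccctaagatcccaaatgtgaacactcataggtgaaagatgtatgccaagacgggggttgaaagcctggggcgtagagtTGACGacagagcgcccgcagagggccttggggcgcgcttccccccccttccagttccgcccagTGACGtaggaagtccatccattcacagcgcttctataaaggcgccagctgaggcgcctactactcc
Batf: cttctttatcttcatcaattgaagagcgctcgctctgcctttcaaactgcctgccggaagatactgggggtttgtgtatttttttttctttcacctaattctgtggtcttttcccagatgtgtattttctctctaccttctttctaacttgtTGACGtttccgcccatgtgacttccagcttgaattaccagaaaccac
Jun: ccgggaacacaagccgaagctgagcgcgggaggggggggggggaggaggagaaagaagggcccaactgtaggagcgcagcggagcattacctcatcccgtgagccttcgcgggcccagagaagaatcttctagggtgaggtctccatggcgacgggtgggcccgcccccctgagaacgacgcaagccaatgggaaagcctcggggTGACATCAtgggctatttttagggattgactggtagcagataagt

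The core TGACG began 114 bases before the second start of Jdp2, 129 and 66 bases before that of Fos and 98 bases before that of Batf. In Jun, TGACATCA began 45 bases before the start. Among windows not printed, the core was found 106 bases before the start of Junb and 60 bases before that of Fosb, and on the opposite strand 7 bases before that of Atf3. For the search, the windows of the 10 genes and all 32851 RefSeq windows also included a short stretch after the start. Of all 32851 windows so extended, 20.8% held the core and 3.62% held TGACATCA on either strand. The complete AP-1 site TGANTCA (7.81% of all windows) and the complete CRE (1.79%, its letters contain the core) were in none of the 12 windows of the 10 genes. Windows of Jund, Fosl2 and Batf3 and the other 2 of Jdp2 held none of these motifs, nor did any of the 12 hold the serum response (CArG) motif, found in 1.63% of all windows, or AGAACA of the glucocorticoid receptor, found in 19%. The window of Jund lies upstream of its GENCODE start. Sites farther upstream than these windows were not searched for any gene.

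Jdp2 was higher in every Van mouse than in any Con mouse. Its level was 16.2, 19.8 and 19.96 CPM in the 3 Con mice and 43.8, 36.4 and 40.02 CPM in the 3 Van mice. The lowest Van mouse thus lay above the highest Con mouse by far more than either group spread. The means were 18.6 ± 2.1 CPM (SD, n = 3) in Con and 40.1 ± 3.69 CPM (SD, n = 3) in Van, a 2.15-fold difference, or 1.11 on the log2 scale with a standard error of 0.10. Per transcript length, the level was 9.54 ± 1.17 FPKM in Con and 20.6 ± 1.64 FPKM in Van. Of the 12685 tested genes with a mean of at least 1 CPM, 37 had a larger log2 fold change. With any 1 mouse left out, the difference stayed between 1.01 and 1.17 on the log2 scale. An exon of a noncoding gene on the opposite strand, Gm47863, shares 165 bases with Jdp2, and whether reads were counted by strand is not stated.

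**Figure D1:**
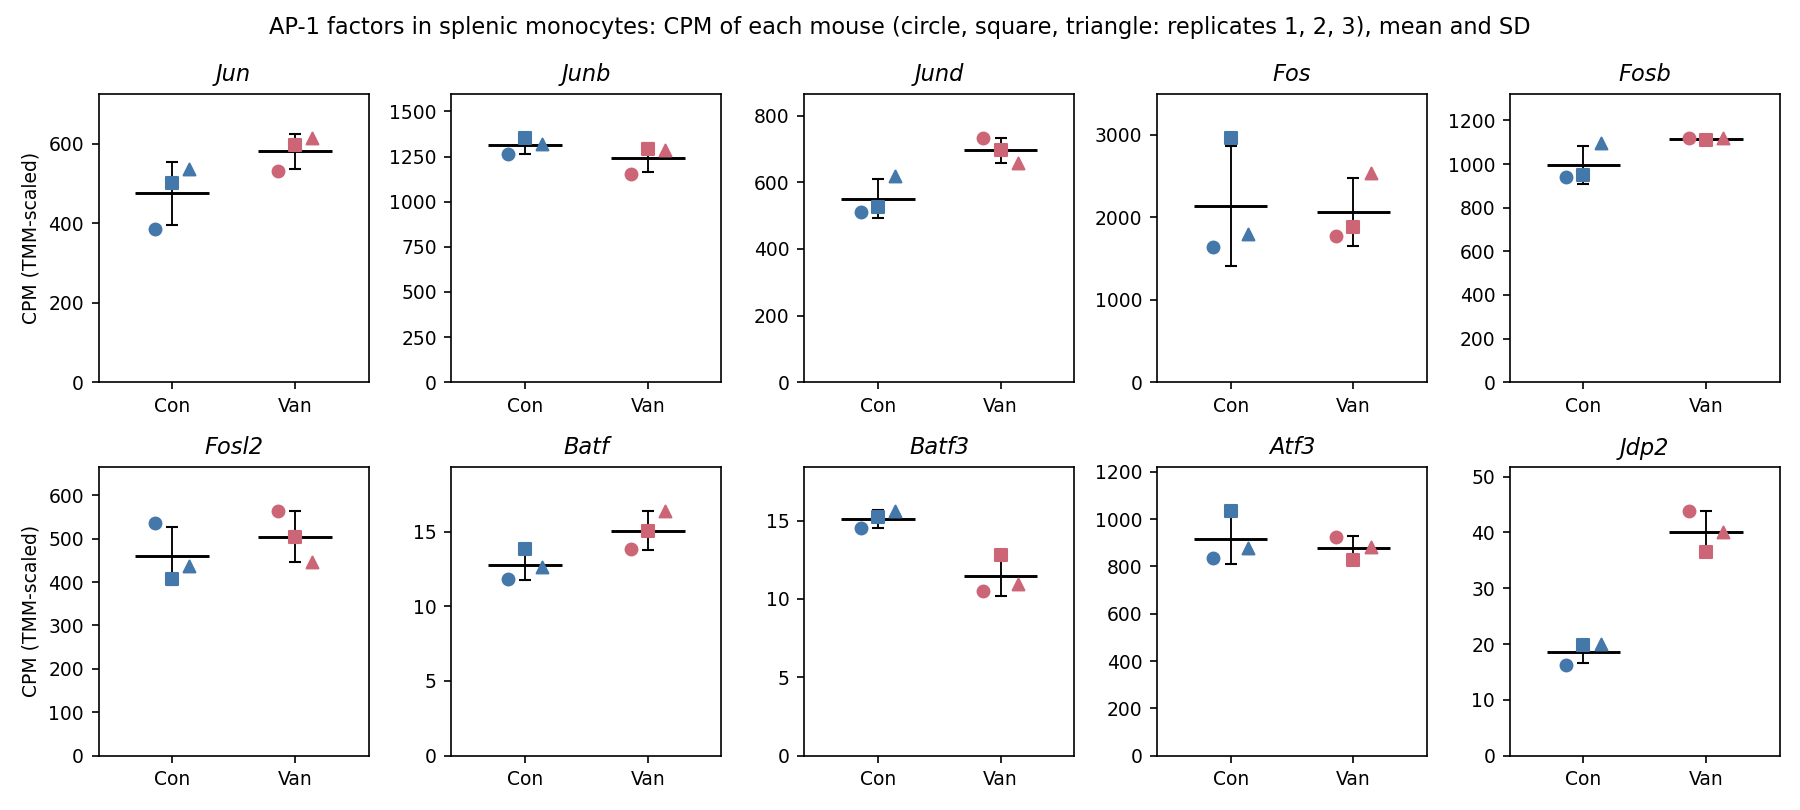
CPM (vertical axes, linear from 0, a separate scale for each gene) of the 10 genes in the 3 Con and 3 Van mice. Each point is 1 mouse, the horizontal line the group mean and the bar 1 SD. Jdp2 lies at 16.2 to 19.96 CPM in Con and 36.4 to 43.8 CPM in Van, whereas most other genes overlap between the groups.

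None of the other 9 genes was called between Van and Con by edgeR's quasi-likelihood test at an adjusted p of at most 0.05 (Benjamini-Hochberg over all genes tested). Over all tested genes, 2.00% were called, 1.08% higher and 0.917% lower in Van. At an unadjusted p under 0.05, 5 of the 9 passed (Jun, Jund, Fosb, Batf and Batf3), where 16.5% of all tested genes did. DESeq2's Wald test called 2 of the 9, Jund and Batf3, where it called 7.36% of its tested genes (3.75% higher and 3.61% lower in Van), and limma on log2(FPKM + 1) values called none. Higher means in Van were seen for 5 of the 9 and lower means for 4, from -0.40 to 0.34 on the log2 scale. Their median log2 fold change was 0.13, against -0.0014 over all genes tested. In 3 of the 9 the ranges of the groups were separate in CPM, Jund and Fosb higher and Batf3 lower in Van. This was so for 22.5% of all tested genes (11.5% higher and 11.0% lower). An exact two-sided permutation test of a single gene with 3 mice against 3 cannot give a p below 0.1.

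**Figure D2:**
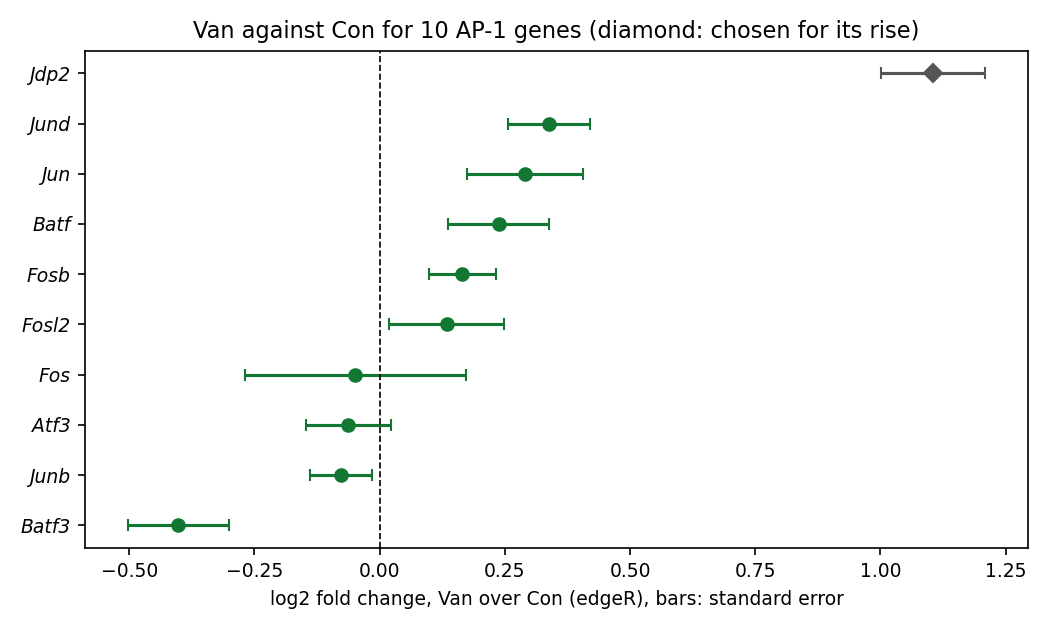
Log2 fold change of Van over Con (horizontal axis) for the 10 genes, with bars of 1 standard error, derived from edgeR's test statistic. Jdp2 (diamond, chosen for this difference) stands at 1.11, and the other 9 lie between -0.40 for Batf3 and 0.34 for Jund.

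Among the Jun family, the DNA-binding partners that Jdp2 pairs with, Jund stood closest to the threshold. It was 510.5, 524 and 617 CPM in Con and 734, 695 and 659 CPM in Van. Every Van mouse lay above every Con mouse, though Con replicate 3 and Van replicate 3 differed by little. The log2 fold change of Jund was 0.34 with a standard error of 0.08 and an adjusted p of 0.0769 from edgeR, and DESeq2 gave an adjusted p of 0.0041. With 1 mouse left out, it ranged from 0.28 to 0.43, with an adjusted p from 0.0755 to 0.222 in edgeR. Jund tends to be expressed in resting cells and overlaps on 877 bases with the antisense gene Gm11175, which was at 0 in all libraries but Van replicate 2, where it stood at 0.0349 CPM.

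Jun, the founding member, was 386, 502 and 536 CPM in Con and 530.3, 596 and 615 CPM in Van. The groups overlapped by a single pair, Con replicate 3 and Van replicate 1. Its log2 fold change was 0.29 (SE 0.12, adjusted p = 0.263 from edgeR). Junb, which can antagonize Jun, was 1263, 1356 and 1319 CPM in Con and 1152, 1292 and 1289 CPM in Van. The ranges overlapped, with a log2 fold change of -0.08 (SE 0.06, adjusted p = 0.612 from edgeR). Junb shares 173 exon bases with Prdx2, a gene on the opposite strand at 70.3 to 80.4 CPM.

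Fos family proteins need a Jun partner to bind DNA. Relative to its mean, Fos differed more between mice of a group than any other of the 10 genes. It was 1643, 2968 and 1797 CPM in Con and 1775, 1884 and 2535 CPM in Van. A single Con mouse, replicate 2, was the highest of all 6 and Van replicate 3 the next, so the groups overlapped throughout. The log2 fold change of Fos was -0.05 with a standard error of 0.22, more than the difference itself (adjusted p = 0.947 from edgeR). Its sign depended on the mice and the processing. It was 0.26 without Con replicate 2, and 0.03 on log2(FPKM + 1) values, where limma was used after quantile normalization.

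Immediate early genes, a class that responds with Fos, did not share one pattern in that mouse. Of 23 tested genes of this list, Con replicate 2 was the highest of the 6 libraries for 4, Egr1, Zfp36, Btg2 and Dusp1, and the lowest for 11, among them the Nr4a2 nuclear receptor gene, Klf6 and Csrnp1. Dusp1, a phosphatase that inactivates MAP kinases, was 3053 CPM in that mouse and 1691 to 2674 CPM in the other 5. Nr4a2 was 43.2 CPM there and 49.4 to 78.2 CPM in the others. These genes were named after their values were seen. Atf3 was also highest in that mouse, whereas Jdp2 at 19.8 CPM was within the range of its group.

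Fosb was 942, 951 and 1096 CPM in Con and 1119, 1110.5 and 1122 CPM in Van. The 3 Van mice were almost equal and all lay above the Con mice, the nearest of which, replicate 3, was close to them. The log2 fold change of Fosb was 0.17 (SE 0.07, adjusted p = 0.267 from edgeR). Fosl2, also called Fra-2, was 536, 407 and 437 CPM in Con and 564, 504 and 446 CPM in Van. The groups overlapped, and the log2 fold change was 0.13 (SE 0.12, adjusted p = 0.638 from edgeR).

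In the BATF family, the 2 members differed in sign. Batf was 11.8, 13.8 and 12.6 CPM in Con and 13.8, 15.02 and 16.4 CPM in Van, with a log2 fold change of 0.24 (SE 0.10, adjusted p = 0.290 from edgeR). The lowest Van mouse and the highest Con mouse were nearly level. Batf3 was 14.5, 15.2 and 15.6 CPM in Con and 10.5, 12.8 and 11 CPM in Van. All 3 Van mice lay below all 3 Con mice, and the log2 fold change was -0.40 with a standard error of 0.10 and an adjusted p of 0.0875 from edgeR. DESeq2 gave Batf3 an adjusted p of 0.0281, and with 1 mouse left out the edgeR values were 0.128 to 0.247. The ratio of Batf to Batf3 in FPKM was 0.668 ± 0.0534 (SD, n = 3) in Con and 1.06 ± 0.102 (SD, n = 3) in Van, without overlap.

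Batf3 is required for type 1 conventional dendritic cells, and 1 of 7 markers of these cells was called by edgeR (2.00% of all genes) and 2 by DESeq2 (7.36% of all genes). Clec9a, a receptor for dead cells on these dendritic cells, fell from 10.1 ± 1.38 to 4.66 ± 0.422 CPM, by 1.12 on the log2 scale (adjusted p = 0.0131 from edgeR). Xcr1, their chemokine receptor, was 3.29 ± 0.373 CPM in the Con mice and 1.83 ± 0.203 CPM after vancomycin (-0.85 on the log2 scale, adjusted p = 0.0667 from edgeR and 0.0142 from DESeq2). Of the 7, 6 had lower means in Van, and their summed level was 471 to 489.8 CPM in Con and 442 to 446 CPM in Van. Most of that sum was Wdfy4, which was 396 ± 15.7 CPM in Con mice and 367 ± 1.58 CPM in Van mice (adjusted p = 0.339 from edgeR). Their part in the values of Batf3 was not tested. With 1 mouse left out, Clec9a was called in 4 of 6 fits, and its adjusted p was at most 0.0758.

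Atf3, the stress-induced relative of Jdp2, was 835, 1034 and 879.6 CPM in Con and 925, 826 and 880.3 CPM in Van. The Van mice lay within the Con range apart from replicate 2, which was slightly below it. The log2 fold change of Atf3 was -0.06 (SE 0.09, adjusted p = 0.794 from edgeR), and without Con replicate 2 it was 0.03.

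Per transcript length, the order of the 10 genes was nearly the same in both groups. In Con, Fos stood at 856 ± 286 FPKM (SD, n = 3) and ranked 45 of all 16138 tested genes, and Junb at 597 ± 24.6 FPKM ranked 83. Atf3 (386 FPKM), Fosb (222), Jund (160.2), Jun (125) and Fosl2 (60.5) followed. Neighbours in this order did not overlap between mice down to Batf3 at 16.7 ± 0.246 FPKM. Batf at 11.2 ± 0.895 and Jdp2 at 9.54 ± 1.17 FPKM overlapped, although Batf was above Jdp2 in each of the 3 mice.

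In Van the first 7 kept their places, and the last 3 changed order. Jdp2 at 20.6 ± 1.64 FPKM stood above Batf at 13.3 ± 1.15 FPKM and Batf3 at 12.6 ± 1.42 FPKM in all 3 Van mice. Batf and Batf3 overlapped in Van, with Batf the higher in 2 of 3 mice. Jdp2, last of the 10 in Con, was thus eighth in Van but still below Fosl2 at 66.9 ± 7.48 FPKM.

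**Figure D3:**
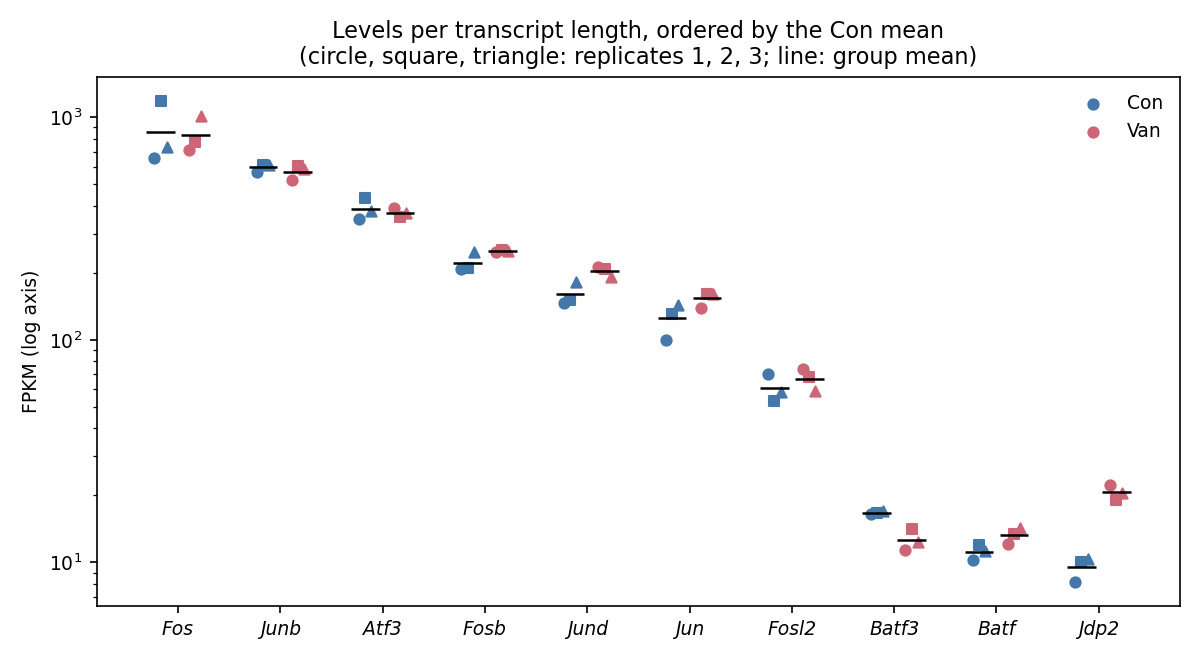
FPKM (vertical axis, log scale) of the 10 genes in each mouse, in the order of their Con means. Points are mice and lines are group means, and the 3 rightmost genes change order, with Jdp2 at 9.54 FPKM in Con and 20.6 FPKM in Van.

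Of the summed FPKM of the 10 genes, the Fos family took 46.2% ± 4.54 (SD, n = 3) in Con and 45.99% ± 2.98 (SD, n = 3) in Van. The Jun family took 36.4% ± 4.02 and 37.2% ± 2.13, Atf3 15.8% ± 0.486 and 14.97% ± 1.45, and the BATF family 1.15% ± 0.123 and 1.04% ± 0.0697, all within overlapping ranges. The share of Jdp2 was 0.392% ± 0.0392 in Con and 0.830% ± 0.108 in Van. With Batf and Batf3 summed, Jdp2 was the smallest share in FPKM in both groups, whereas by CPM its share in Van, 0.562%, was above the 0.371% of the BATF family. The sum itself was 2444 ± 345 FPKM in Con and 2498 ± 172 FPKM in Van.

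Set against Jdp2, the activating members stood at lower ratios in Van, a description that uses the value by which Jdp2 was chosen. Fos was 89.4 ± 25.2 times the FPKM of Jdp2 in Con (SD, n = 3) and 40.7 ± 8.97 times in Van. Jun was 13 ± 0.777 times in Con and 7.49 ± 1.14 times in Van, and Jund 16.9 ± 1.55 and 9.91 ± 0.814 times. None of these ratios overlapped between the groups. Nor did those of Atf3, 40.7 ± 3.74 and 18.1 ± 0.66 times, and Batf3, 1.77 ± 0.217 and 0.618 ± 0.117 times. The lower ratios were thus not particular to activating members, and all contain the rise by which Jdp2 was picked. The ratio of Fos to Jun, which leaves Jdp2 out, was 6.90 ± 2.00 in Con and 5.42 ± 0.777 in Van and overlapped.

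Beside Jdp2 on chromosome 12, Fos and Batf had log2 fold changes of -0.05 and 0.24, and Tmed10, the nearest protein-coding gene before Fos, -0.02 (adjusted p = 0.920 from edgeR). Flvcr2, the next after Batf, was not analysed here. On chromosome 1, Batf3 and Atf3 were at -0.40 and -0.06, and Fam71a between them at 0.80 (SE 0.26, adjusted p = 0.173 from edgeR).

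**Figure D4:**
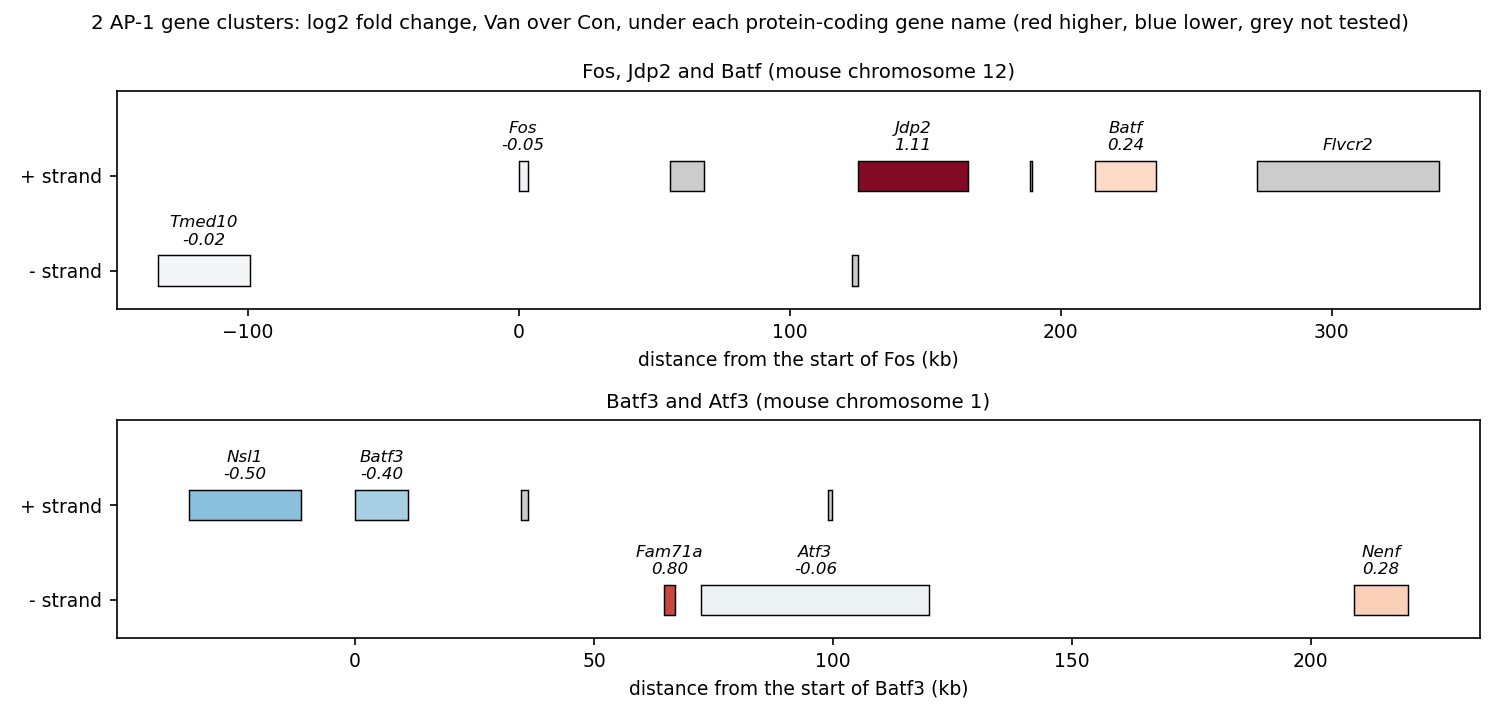
Maps of the 2 clusters, with distance from the start of Fos or Batf3 in kb (horizontal axes) and each gene on its strand. The number under a name is the log2 fold change of Van over Con, red for higher and blue for lower, and grey genes were not tested. Jdp2 at 1.11 lies between Fos at -0.05 and Batf at 0.24.

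The 5 genes whose pattern over the 6 libraries was most like that of Jdp2 were Vopp1, Sh3tc1, Mcoln1, Ipo9 and Dhx40. Their Pearson r with Jdp2 on log2 CPM was 0.992 to 0.994, the highest among 12685 genes. The points are 6 libraries that fall into the 2 groups, so r is a description. Their own differences were far smaller than that of Jdp2, from 0.14 for Ipo9 to 0.26 for Dhx40 on the log2 scale, and none was called by edgeR (lowest adjusted p = 0.0537, Dhx40). Mcoln1 encodes a lysosomal calcium channel and Ipo9 a nuclear import receptor.

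Other factors of the same zipper family were read from a list of 22 genes, of which 21 were tested. In Van, 14 had higher and 7 lower means, with a median log2 fold change of 0.06 (-0.0053 without Van replicate 1). By edgeR, 2 of the 21 rose and none fell, where 1.08% of all genes rose and 0.917% fell, and 8 had an unadjusted p under 0.05 (16.5% of all genes). DESeq2 called 6 (7.36% of all genes), 4 of them higher and 2 lower in Van (Bach2 and the oxidative-stress factor Nfe2l2, adjusted p = 0.0048 and 0.0325 from DESeq2). Crem, a cAMP-responsive factor with activator and repressor isoforms, was 9.35, 8.65 and 7.22 CPM in Con mice and 15.1, 14.2 and 12.8 CPM in Van mice (0.74 as log2 fold change, SE 0.12, adjusted p = 0.0288 from edgeR). Maf, a macrophage and lymphocyte factor, was 77.9, 92 and 89.8 CPM in Con mice and 112, 138 and 126 CPM in Van mice (0.53 as log2 fold change, SE 0.09, adjusted p = 0.0323 from edgeR). The 6 red pulp macrophage markers all had higher means in Van and none was called by edgeR, with 4 at an unadjusted p under 0.05 (16.5% of all genes) and 1 called by DESeq2 (7.36% of all genes). Their sums were 2423 to 2859 CPM in Con and 2882 to 3643 CPM in Van, and their part in the rise of Maf was not tested. Neither Crem nor Maf overlapped between the groups, and each was still called in 1 of the 6 fits that left a mouse out, Crem without Con replicate 1 and Maf without Van replicate 1. The largest negative value was that of Bach2, a repressor at related sites, with 13.3 ± 2.16 CPM in Con mice and 8.39 ± 1.28 CPM in Van mice (-0.66 as log2 fold change, adjusted p = 0.0688 from edgeR). Summed B-cell markers, where Bach2 is also known, were 42.7 to 45.7 CPM in Con and 35.2 to 37.5 CPM in Van, and their part in Bach2 was not tested. Cd22 and Cd79b made up most of that sum, at 24.7 ± 3.15 and 14.5 ± 1.24 CPM in Con. The kit used for these monocytes selects against CD45R+ cells, which include B cells, and Cd22 and Cd79b were detected in each library. Fosl1, the Fos-family gene outside the 10, was 1.59 ± 0.376 and 2.49 ± 0.774 CPM (log2 fold change 0.65, adjusted p = 0.334 from edgeR).

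MAP kinases phosphorylate Jun, Fos and Jdp2 proteins or induce their genes. Of 21 tested MAP kinases and their activators, 11 had higher and 10 lower means in Van, the median was 0.0032, and edgeR called none, with 6 of 21 at an unadjusted p under 0.05 (16.5% of all genes) and 4 called by DESeq2 (7.36% of all genes), 2 in each direction. Mapk11, a p38 kinase, had the largest positive log2 fold change at 0.44 (adjusted p = 0.400 from edgeR), and Mapk9, a JNK that phosphorylates Jun, the largest negative at -0.26 (adjusted p = 0.0912 from edgeR).

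Serum response factor and its partners, which drive Fos and Egr1 transcription, comprised 6 tested genes with a median of -0.15, of which 1 rose by edgeR (1.08% of all genes), while DESeq2 called 2 (7.36% of all genes), 1 in each direction. Mkl1, an actin-regulated coactivator, was 168, 188 and 192 CPM in Con mice and 241, 225 and 238 CPM in Van mice, without overlap (0.36 as log2 fold change, SE 0.07, adjusted p = 0.0371 from edgeR). Its call was lost in each of the 6 fits that left a mouse out (adjusted p = 0.0727 to 0.123 from edgeR). Mkl2, its paralog, had the most negative log2 fold change at -0.21 (adjusted p = 0.434 from edgeR).

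Immediate early genes other than the members had higher means in Van in 15 of 23 tested cases, with a median of 0.20. EdgeR called none of them, 9 of 23 were at an unadjusted p under 0.05 (16.5% of all genes), all higher in Van, and DESeq2 called 4, all higher (3.75% of its tested genes were called higher). Egr2 had the largest positive value at 0.60 (4.26 ± 1.17 and 6.47 ± 1.82 CPM, adjusted p = 0.291 from edgeR) and Egr3 the largest negative at -0.43 (adjusted p = 0.479 from edgeR). The median moved with the mouse left out, from 0.08 without Van replicate 1 to 0.23 without Van replicate 3.

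Of 20 tested genes long known to carry AP-1 sites, 7 had higher and 13 lower means in Van, with a median of -0.09 (0.02 without Con replicate 1), and 1 fell by edgeR (0.917% of all genes), where DESeq2 called 2, both lower (3.61% of all genes). Ccnd1, the cell-cycle gene for cyclin D1, was 43, 40.5 and 43 CPM in Con mice and 33.2, 33.7 and 31.8 CPM in Van mice, without overlap (-0.36 as log2 fold change, SE 0.06, adjusted p = 0.0323 from edgeR). That call too was lost in each fit that left a mouse out (adjusted p = 0.0759 to 0.136 from edgeR). Plau, the gene for urokinase, was at 5.77 ± 0.657 CPM in Con mice and 3.44 ± 0.547 CPM in Van mice (-0.75 as log2 fold change, adjusted p = 0.0684 from edgeR and 0.0084 from DESeq2). Spp1 had the largest positive value among genes with a group mean of at least 1 CPM, 0.51 (adjusted p = 0.636 from edgeR).

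Corepressors known to work with Jdp2 or in AP-1 repression comprised 8 tested genes, 6 with higher and 2 with lower means in Van and a median of 0.05. None was called by edgeR or DESeq2, and none had an unadjusted p under 0.05 in edgeR. Hdac6 and Hdac1, both histone deacetylases, marked the ends at 0.23 and -0.10 (adjusted p = 0.402 and 0.501 from edgeR).

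Of the 2 interferon regulatory factors that bind with BATF proteins, Irf4 fell and Irf8 did not pass the test. Irf4 was 38.6, 42.8 and 35.6 CPM in Con mice and 25, 29.2 and 24.9 CPM in Van mice, without overlap (-0.57 as log2 fold change, SE 0.09, adjusted p = 0.0304 from edgeR). Irf8 was 302.5 ± 23.5 CPM in Con mice and 269 ± 9.88 CPM in Van mice (-0.17 as log2 fold change, adjusted p = 0.265 from edgeR). Irf4 is a gene the study singled out in these libraries, so its direction here is not independent evidence. Its call was lost with any 1 mouse left out (adjusted p = 0.0686 to 0.0967 from edgeR). Irf4 and Irf8 are also known in dendritic and B cells. The 4 plasmacytoid dendritic cell markers all had lower means in Van, with sums of 87.5 to 93.9 and 80.3 to 85.2 CPM. EdgeR called none of these 4, and DESeq2 called 1 (7.36% of all genes). At an unadjusted p under 0.05 were 2 of the 4 (16.5% of all genes). B-cell markers were lower in 6 of 6 cases. None was called by edgeR, with 1 at an unadjusted p under 0.05 (16.5% of all genes). The general list of conventional dendritic cell markers had lower means in 4 of 5 cases and none called by either tool, and its sums overlapped, at 453 to 494 CPM in Con and 411 to 477 CPM in Van. Flt3, the cytokine receptor of that list, was at 35.7 ± 4.05 CPM in Con mice and 42.4 ± 2.49 CPM in Van mice (adjusted p = 0.230 from edgeR). Of 5 plasma-cell markers, 4 had lower means, and the sums overlapped at 404 to 434 CPM in Con and 399 to 426 CPM in Van. Of these, 0 were called by edgeR and 1 by DESeq2 (7.36% of all genes). An unadjusted p under 0.05 was found for 2 (16.5% of all genes). The part of these cells and of type 1 dendritic cells in Irf4 and Irf8 was not tested.

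**Figure D5:**
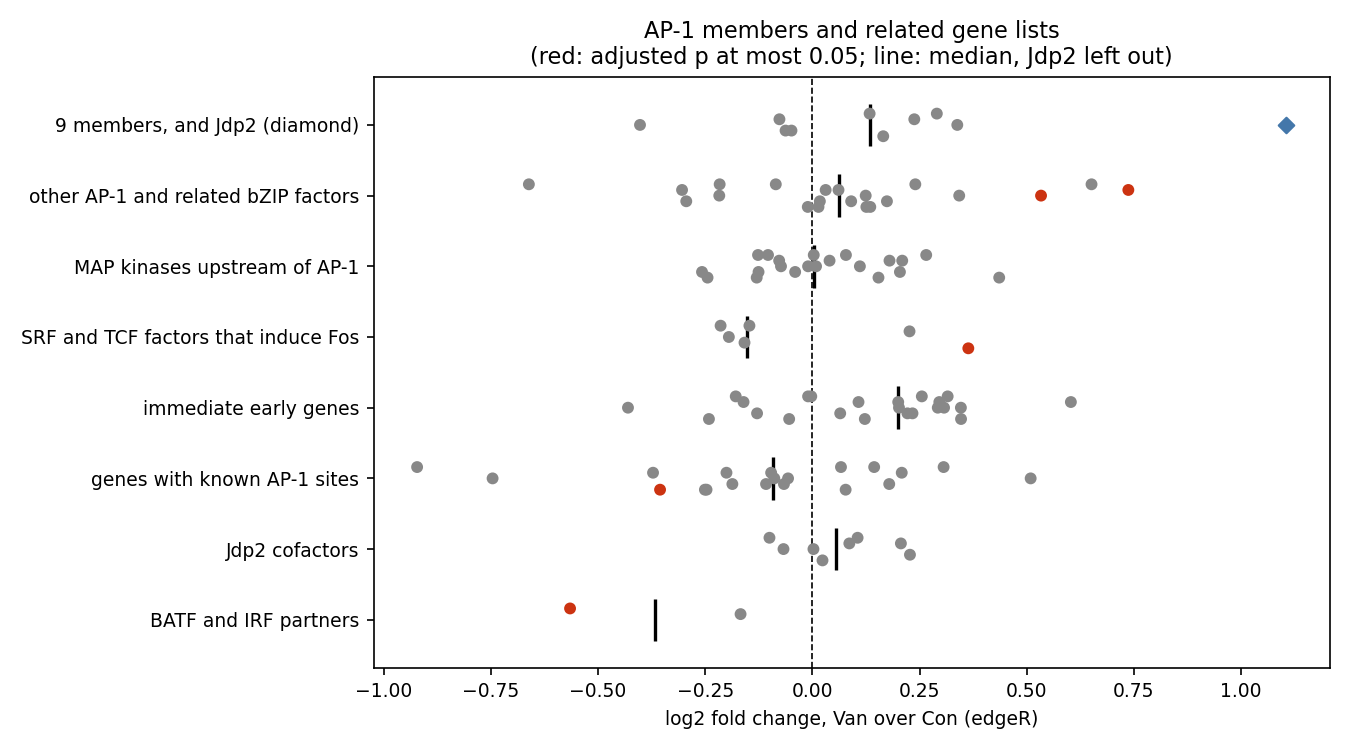
Log2 fold change of Van over Con (horizontal axis) for every tested gene of the 10 members and the 7 gene lists. Each point is a gene, red where edgeR called it, vertical lines are medians, and the diamond is Jdp2 at 1.11. The 5 called genes are Crem, Maf, Mkl1, Ccnd1 and Irf4.

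Other cell-type markers also differed between the groups. Ccr2, the chemokine receptor of classical monocytes, fell from 731 ± 44.8 to 411 ± 83.7 CPM, by 0.83 on the log2 scale (adjusted p = 0.0283 from edgeR), and was called in 2 of 6 fits that left a mouse out. Of the 7 classical monocyte markers it belongs to, 3 had higher and 4 lower means in Van, and the summed levels overlapped. EdgeR called only Ccr2, where 0.917% of all genes were called lower. DESeq2 called Ccr2 and the integrin gene Itgam lower (3.61% of all genes), Itgam with an adjusted p of 0.0024 from DESeq2. Chil3, a lectin gene of these cells, had the largest positive log2 fold change of the 7, 0.56 (adjusted p = 0.496 from edgeR). All 6 erythroid markers had higher means in Van, with summed levels of 61.9 to 125 CPM in Con and 212 to 468 CPM in Van. By edgeR 4 rose (1.08% of all genes), Hbb-bs, Hbb-bt, Hba-a1 and Alas2, by 1.76 to 2.08 on the log2 scale. With 1 mouse left out, Alas2 was called in 2 of 6 fits, each beta-globin gene in 1 and Hba-a1 in 0. Globin genes have near-identical copies among which reads may be split. Platelet markers had lower means in Van in 4 of 4 cases, with sums of 15.2 to 30.6 and 12.9 to 18.0 CPM. None of them was called by edgeR, and 2 were at an unadjusted p under 0.05 (16.5% of all genes). Cd79a, a B-cell marker, was 2.15 ± 0.549 and 1.54 ± 0.403 CPM (adjusted p = 0.451 from edgeR). The part of these cells and of the red pulp macrophages in the level of Jdp2 was not tested.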

How the data were processed

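Splenic monocyte RNA of 3 Con mice and 3 Van mice was grouped by the treatment in the sample titles. Since the study's data statement points to a different deposit, the libraries were assigned to its groups by treatment alone. The authors aligned the reads to GRCm38 with HISAT2 2.2.1 and SAMtools 1.9 and made the FPKM values with StringTie 2.1.3 and Ballgown. The authors derived the deposited estimated counts from them with tximport. These counts assume reads of 75 bases while the study states 100, so a factor of 0.375 was used for the fragment numbers. The annotation release and the use of strand in counting are not given in the sources used here.

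The expected counts as deposited were rounded and tested in R 4.3.3 with edgeR 4.0.16 (TMM, filterByExpr at a minimum count of 10, quasi-likelihood test, with no covariate). Benjamini-Hochberg adjustment was made over every gene tested, and "called" means an adjusted p-value no higher than 0.05. The method was tested on simulated data. Same-group libraries, compared for duplicate deposits on the fragment scale, had a chi-square of 8.08 to 16.8 per gene, so none was a copy of another. Each mouse counted as 1 replicate. Standard errors of log2 fold changes were derived from the fold change and the statistic of the edgeR test.

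The members and gene lists were chosen with earlier results of these data known. Beyond the 10 members, the text names, from each list, the called genes and the largest positive and negative log2 fold changes among genes with a mean of at least 1 CPM in either group, the 5 genes most like Jdp2, and Xcr1, Clec9a, Cd79a and the called markers. Bach2 was read beside B-cell markers, Fosl1, Tmed10, Flvcr2 and Fam71a were named as relatives or neighbours, and Dusp1, Zfp36, Egr1, Btg2, Nr4a2, Klf6, Csrnp1, Nfe2l2, Flt3, Itgam, Chil3, Cd22, Cd79b, Wdfy4, Ly6g, S100a8, S100a9 and Mpo after their values were seen. Alternatives were DESeq2 1.42.0, no filter, RLE size factors, no TMM factor, a replicate block, a minimum of 10 counts in each library, limma 3.58.1 on log2(FPKM + 1) or, instead, log2(FPKM + 0.1) after quantile normalization, 1 identifier per symbol, the fragment scale and each library left out. Motifs were searched on both strands of RefSeq promoter windows, with a short stretch after each start included.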

Additional observations from a re-analysis of the deposited data

How the results depend on the processing

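The log2 fold change of Jdp2 stayed between 1.01 and 1.17 in all 17 alternatives. No alternative but DESeq2 called any of the 9 other members, and DESeq2 called 2. Over all genes, 322 were called by edgeR, 962 by DESeq2, 110 with a replicate block, 21 and 4 by limma on log2(FPKM + 1) and log2(FPKM + 0.1) values and 24 by limma with no filter, and 21 to 136 with 1 library left out, where fewer samples enter. Fos changed sign in limma (0.028 with either pseudocount and with no filter), without Con replicate 2 (0.26), Van replicate 1 (0.05) and Van replicate 2 (0.01), from a lowest value of -0.22, and Atf3, which ranged from -0.13 to 0.033, without Con replicate 2. DESeq2 called 6 other zipper factors, 4 MAP kinases, 2 serum response factors, 4 immediate early genes and 2 genes with AP-1 sites. The 3 limma fits called 0 of the zipper, serum response, AP-1 site and BATF partner lists, and with 1 library left out these 4 lists gave 0 to 1, 0, 0 and 0 calls, and immediate early genes 0 to 1. One MAP kinase was called at 10 counts in every library and 1 on the fragment scale. In limma the median of the serum response list was -0.074, -0.081 and -0.074, and that of immediate early genes 0.127 with the pseudocount of 1 and 0.117 with no filter, against 0.077 to 0.228 with 1 library left out. From CPM in place of FPKM, shares in Con and Van were 51.9% and 51.5% for the Fos family, 13.3% and 12.3% for Atf3, 0.407% and 0.371% for the BATF family and 0.271% and 0.562% for Jdp2. The cause of these differences was not tested. The replicate numbers do not pair the mice, since same-numbered libraries deviated together with r of 0.0253, -0.0019 and -0.0726 and only Con replicate 1 correlated best with its own number. The replicate block called 0 members, 0 serum response factors and 0 genes with AP-1 sites.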
